A study of Mus musculus with 6 samples.

Results

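Cells of the growing hair follicle (HF) that carried transcripts of Col14a1, Gnmt and Cpxm1 were examined in dorsal skin after depilation. Barcodes of the 2 d, 4 d and 6 d libraries with 500 to 7000 detected genes and at most 10% mitochondrial UMIs (unique molecular identifiers, each a captured RNA molecule) were kept, and a barcode was chosen if it held at least 3 UMIs over these 3 genes and fewer than 5 over the fibroblast collagens Col1a1, Col1a2 and Col3a1. The rule found 1665 of 31860 filtered barcodes, of which 8 came from 2 d, 1261 from 4 d and 396 from 6 d. The whole series held 55177 filtered barcodes in 6 libraries.

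All libraries came from wildtype male FVB mice aged postnatal day 55 to 57, whose dorsal skin was shaved and waxed, which pulls out the hair shafts and starts a new hair cycle. Skin was taken at 0 h, at 4 h and 16 h after depilation, and on days 2, 4 and 6. At each time 2 mice were dissociated apart and pooled at equal cell numbers into 1 library of the 10x Genomics 3′ kit, so a difference between time points is also a difference between libraries and pairs of mice, which cannot be told apart, and no time point was tested against another. The 3 libraries with chosen cells had 99686327 (2 d), 95678280 (4 d) and 88632160 (6 d) UMIs in all.

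The outer root sheath (ORS) is the outermost epithelial layer of the HF and is continuous with the basal layer of the epidermis. In anagen, the growth phase, HF stem cells (HFSCs) of the bulge feed the ORS, which grows down around the bulb while matrix cells at its base divide and form the inner root sheath (IRS) and the hair shaft. Shh from the matrix acts on the ORS through the receptor PTCH1, and Ptch1 and Gli1 are themselves targets of the pathway.

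Col14a1 (ENSMUSG00000022371, chr15:55307750-55520803, plus strand of GRCm38) encodes collagen XIV, which sits on collagen fibrils. Gnmt (ENSMUSG00000002769, chr17:46725664-46729168, minus strand) encodes glycine N-methyltransferase, which uses S-adenosylmethionine. Cpxm1 (ENSMUSG00000027408, chr2:130390775-130397574, minus strand) encodes a secreted carboxypeptidase-like protein. The other 3 genes given as markers of these cells were Edn2, a secreted endothelin (chr4:120161206-120167360, plus strand), Foxe1, a forkhead transcription factor (chr4:46343609-46346412, plus strand), and Mfap2, a microfibril protein (chr4:141010418-141015984, plus strand). All 6 are protein-coding genes in the annotation.

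Promoter windows from RefSeq (GRCm38.p6) matched 4 of the 6 marker genes. Gnmt and Cpxm1 are shown as genes that chose the cells. Each line gives the 250 bases before the start of transcription, 5′ to 3′ on the strand of the gene, at chr17:46729166-46729415 for Gnmt and chr2:130397630-130397879 for Cpxm1, and capitals mark letters of a searched motif.
Gnmt: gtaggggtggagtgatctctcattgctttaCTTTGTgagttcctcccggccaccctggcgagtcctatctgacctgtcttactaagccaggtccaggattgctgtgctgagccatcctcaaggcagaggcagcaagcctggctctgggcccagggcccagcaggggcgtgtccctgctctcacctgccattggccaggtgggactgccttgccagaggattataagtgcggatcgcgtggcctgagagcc
Cpxm1: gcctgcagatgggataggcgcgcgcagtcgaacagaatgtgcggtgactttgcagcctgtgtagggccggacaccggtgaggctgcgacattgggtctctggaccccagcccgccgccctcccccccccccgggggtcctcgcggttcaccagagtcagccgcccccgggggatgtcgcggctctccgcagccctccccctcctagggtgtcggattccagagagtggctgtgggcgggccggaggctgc
The motifs searched on both strands, over windows that ran 50 bases past the start, were GACCACCCA for GLI, TAATTA for LHX, ACAATG and ACAAAG for SOX, and CTTTGA for TCF/LEF factors. The Gnmt window held 1 match, ACAAAG on the opposite strand at position 31, and the windows of Cpxm1, Edn2 and Mfap2 held none of these letters. Of 32851 promoter windows, 0.253% held GACCACCCA, 5.29% TAATTA, 12.6% ACAATG, 18.7% ACAAAG and 16.0% CTTTGA. The letters overlap in part between the SOX and TCF/LEF motifs, and a match is a description of the sequence.

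The chosen cells made up 0.0839% of filtered barcodes at 2 d (exact Clopper-Pearson 95% interval 0.0362 to 0.165), 10.2% at 4 d (interval 9.63 to 10.7) and 3.99% at 6 d (interval 3.62 to 4.40). These intervals, and all others below, cover counting error only. The same rule found no cell among 6925 filtered barcodes at 0 h, which allows a share of up to 0.0433% (3 counts of the total, not the exact interval), 1 cell at 4 h and none among 8729 at 16 h, which on the same limit allows up to 0.0344%. The cells were thus nearly all from 4 d and 6 d. They were deeper than their libraries: the median was 9241 UMIs at 4 d and 7283.5 at 6 d, against 6309 and 7163.5 over all filtered barcodes, and a threshold in raw UMIs favours deep cells. After thinning every barcode to 2000 UMIs the rule kept 1.73% at 4 d and 1.28% at 6 d. Just inside the threshold, 303 cells at 4 d and 75 at 6 d had exactly 3 UMIs of the rule genes, and just outside it 390 and 138 barcodes had 2. A doublet score marked 15.5% of the chosen cells at 4 d and 13.6% at 6 d, against 11.1% and 8.60% of filtered barcodes, and these cells were retained. At 2 d it marked 3 of the 8 chosen cells, and 5 of the 8 held a collagen UMI.

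The label was checked against markers that the rule did not use. Basal keratinocyte genes were abundant: Krt14 stood at 4115 CPM (UMIs per 1000000 summed UMIs) at 4 d and 5708 at 6 d, Krt5 at 2983 and 2814, and Krt17, a keratin of the ORS and other follicle layers, at 5261 and 4284. With each cell thinned to 2000 UMIs, 98% of cells at 4 d and 97.5% at 6 d held a Krt5 UMI. T cells of the same libraries, which do not make keratins, gave 37.4% and 28.9% after the same thinning (median 2551 and 2709 UMIs before it). Their Krt14 level, 4172 CPM at 4 d and 3709 at 6 d, was close to that of the chosen cells at 4 d and below it at 6 d. At 4 d the Krt14 level thus does not set the chosen cells apart. After thinning, 96.6% and 97.5% of the chosen cells held a Krt14 UMI, against 55.5% and 44.7% of T cells. The part of free RNA and of doublets was not tested. Sox9 and Lhx2, transcription factors of HFSCs and the ORS, stood at 266 and 471 CPM at 4 d and at 456 and 337 at 6 d, against 81.1 and 38.0 and then 143 and 12.2 in T cells. Lgr5, a receptor of the lower bulge and lower ORS, stood at 133 and 186 CPM, against 14.9 and 5.47 in T cells. After thinning, 26.5% of the chosen cells at 4 d held an Lgr5 UMI, against 1.99% of T cells, and 33.1% at 6 d, against 0% of T cells.

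Genes of other skin cells varied in level. Upper follicle and epidermal genes were abundant, with a sum over 15 genes of 4571 CPM at 4 d and 7897 at 6 d, against 8287 and 17349 in T cells. Hair matrix and IRS genes summed to 714 and 433 CPM, led by Cux1 at 4 d and Gata3 at 6 d. Of 16 fibroblast and dermal papilla genes, Pdgfra stood at 0.225 CPM at 4 d and 0.276 at 6 d, Lum at 0.376 and 0, and Vim, the most abundant of the list, at 157 and 82.8 against 4762 and 2516 in T cells. Dcn of the same list stood at 19.3 and 8.28 CPM. Of 5 genes of the list tested against cells with Postn, Cd34 or Krt24, compared further on, Dcn and Vim were higher and none was lower. Against cells chosen by Cd34 and Krt24 alone, 0 of 4 passed. The IRS keratin Krt71 stood at 16.0 and 19.0 CPM, against 3.08 and 18.2 in T cells. Shh, the matrix ligand, stood at 1.35 and 0.828 CPM. Krt24, a keratin of the resting bulge, stood at 0.526 and 2.48 CPM. The 8 T cell genes summed to 74.4 and 26.2 CPM and the 7 melanocyte genes to 151 and 196 CPM, with Dct the highest of the latter. Sox9, Lhx2 and Lgr5 were thus above their T cell levels, while upper follicle, epidermal and some hair matrix genes were present too. The rule cannot tell apart a single ORS layer from several that share these genes.

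**Figure D1:**
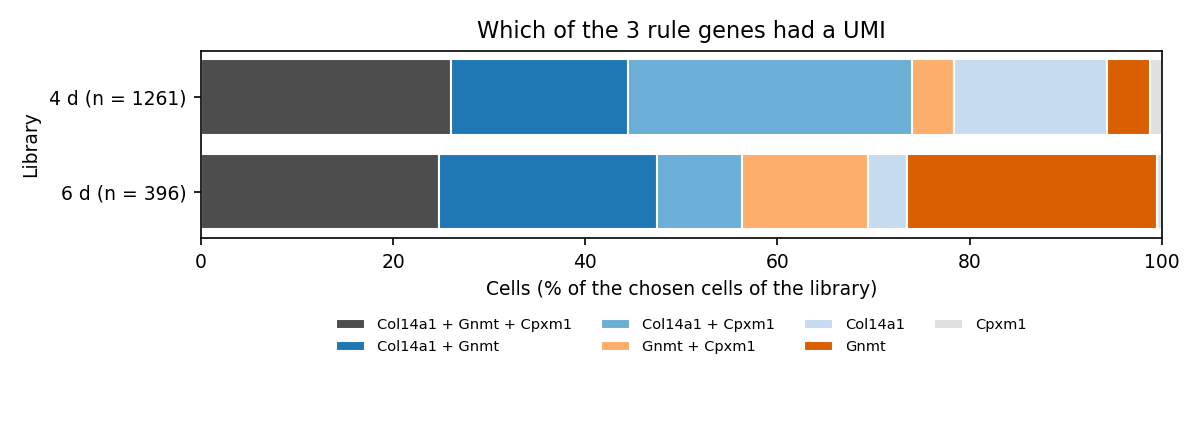
Share of the chosen cells of the 4 d and 6 d libraries (x axis, percent) by which of Col14a1, Gnmt and Cpxm1 had at least 1 UMI, as stacked bars. Cells with Gnmt alone made up 4.44% at 4 d and 26.0% at 6 d, and those with Col14a1 and Cpxm1 but no Gnmt 29.5% and 8.84%.

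The cells held the 3 rule genes in different combinations. At 4 d, 89.9% of cells held a Col14a1 UMI and 53.3% a Gnmt UMI. At 6 d, 60.4% held Col14a1 and 86.6% Gnmt. All 3 genes were present together in 26.0% of cells at 4 d and 24.7% at 6 d. At 2 d, every one of the 8 cells held Col14a1, 1 of them held Gnmt and 1 held Cpxm1. These shares used the genes that chose the cells and are a description. As a measure of background, T cells thinned to 2000 UMIs held Col14a1 in 0.613% of cells at 4 d and in none of 284 at 6 d.

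In the order 2 d, 4 d, 6 d, Col14a1 summed over the chosen cells stood at 196, 342 and 198 CPM. Gnmt stood at 7.55, 129 and 573 CPM, and Cpxm1 at 15.1, 99.7 and 89.4. The 2 d values rest on 132524 UMIs from 8 cells, where 3 UMIs amount to 22.6 CPM. Of the markers outside the rule, Edn2 stood at 30.2, 61.6 and 93.5 CPM, Foxe1 at 7.55, 107 and 46.3, and Mfap2 at 30.2, 32.8 and 67.6. Among these 3, Edn2 and Mfap2 stood higher at 6 d than at 4 d and Foxe1 lower. The levels of the rule genes depend on one another through the choice of cells, and no direction is read from them. The highest count in 1 cell was 22 Col14a1 UMIs at 4 d and 61 Gnmt UMIs at 6 d.

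**Figure D2:**
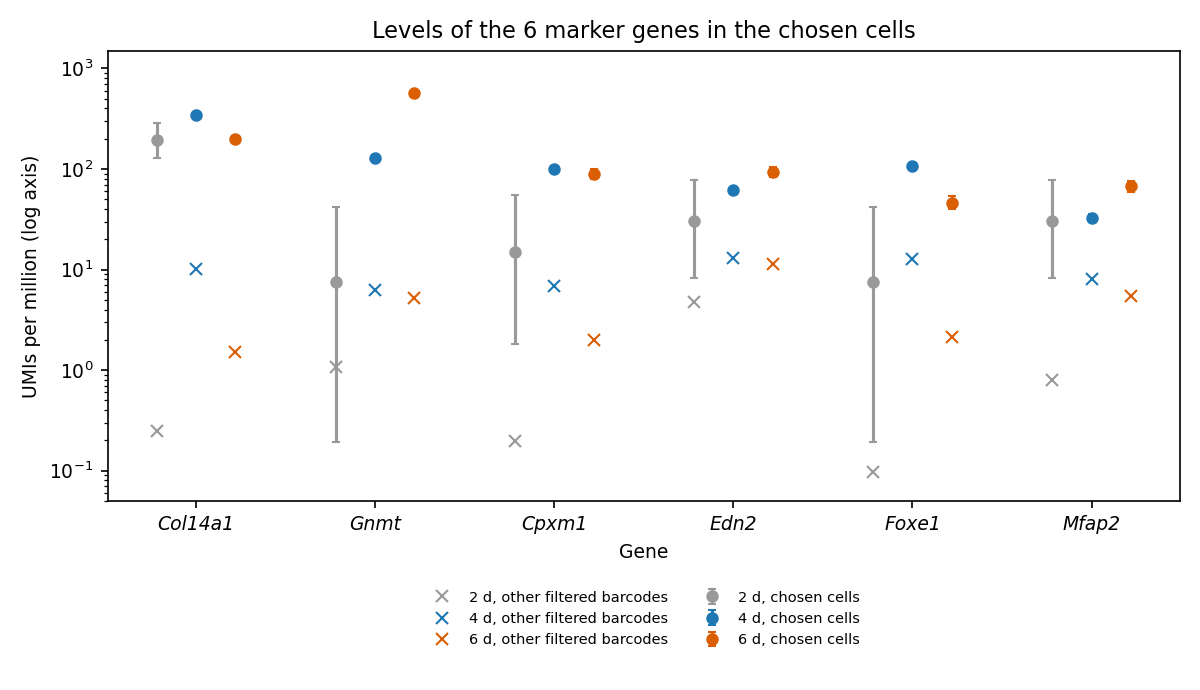
Level in CPM (y axis, log scale) of the 6 marker genes summed over the chosen cells of each library (circles, exact Poisson 95% intervals) and over all other filtered barcodes of that library (crosses). Gnmt stood at 129 at 4 d and 573 at 6 d and Col14a1 at 342 and 198, and the other barcodes stayed below 14 for all 6 genes.

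Cells with and without a Col14a1 UMI differed in other genes too. Postn, Nfatc1, Ptch1, Foxe1 and Col4a1 differed in the same direction in both libraries, and Krt28 did not. The 127 cells at 4 d and 157 at 6 d without Col14a1 had fewer UMIs, with medians of 7534 and 5669 against 9416.5 and 8870. Postn, a matricellular protein made in the bulge and upper ORS, stood at 184 and 239 CPM without Col14a1 and at 41.3 and 43.4 with it. Nfatc1, a transcription factor of bulge HFSCs, stood at 57.6 and 71.7 CPM without Col14a1 and at 13.9 and 17.1 with it. Ptch1 went the other way, at 179 and 63.6 CPM without Col14a1 and 315 and 191 with it. Foxe1 stood at 40.0 and 9.86 CPM without Col14a1 and 112 and 62.6 with it, and Col4a1, a basement membrane collagen, at 105 and 93.2 without it and 232 and 264 with it. The groups were split on a rule gene and are given without a test. Genes of other cell types also differed with the split: the IRS keratin Krt28 stood at 177 CPM without Col14a1 at 4 d against 47.6 with it, and at 8.07 against 17.1 at 6 d, and Dct, a melanocyte enzyme, at 198 CPM without it at 6 d against 7.97. Their part in these differences was not tested.

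Most genes of the chosen cells differed by less than 2-fold between 4 d and 6 d. Of 3290 genes with at least 50 CPM in 1 library and 20 UMIs over both, 155 were at least 2-fold higher at 6 d (4.71%) and 39 at least 2-fold lower (1.19%). The median log2 ratio over these genes was -0.14. With 1 library per time point these are values without a test. In T cells of the same libraries, 69 of the 155 higher genes (44.5%) and 23 of the 39 lower genes (59.0%) also moved at least 2-fold the same way. The share of all measured genes past 2-fold in T cells was not counted, and a shift of the whole library was not tested.

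Several of the genes with the largest folds also differed in T cells. Lor, the main protein of the cornified envelope, stood at 18.3 CPM at 4 d and 537 at 6 d in the chosen cells, and at 16.9 and 1457 in T cells. Flg2 (2.40 and 143 CPM), Crct1 (10.5 and 196), Wfdc21 (1.73 and 50.8) and Cnfn (4.81 and 84.4) also stood higher in T cells than in the chosen cells at 6 d. Cstdc5 (3.53 and 57.9 CPM) stood at 85.8 in T cells at 6 d, and Flg, which binds keratin filaments, stood at 28.0 and 426 CPM against 11.5 and 111 in T cells. The part of free RNA and of library preparation in these changes was not tested.

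**Figure D3:**
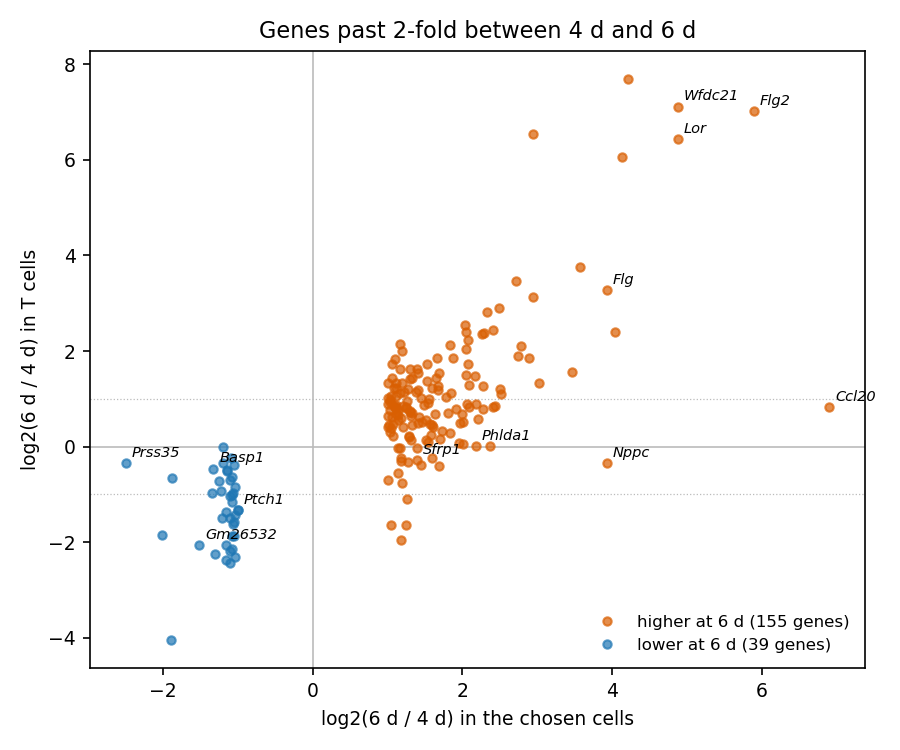
Log2 ratio of 6 d over 4 d in the chosen cells (x axis) and in T cells of the same libraries (y axis) for the 155 genes at least 2-fold higher and the 39 at least 2-fold lower in the chosen cells, 1 point per gene, with T cell levels under 1.82 CPM, which is 3 UMIs at 6 d, set to that value. Lor and Flg2 were higher at 6 d in both, while Ccl20, Nppc, Phlda1 and Sfrp1 lie between the dotted lines that mark 2-fold on the T cell axis.

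In the library where the gene stood higher, the T cell level was below 20% of that in the chosen cells for 14 of the genes higher at 6 d and 7 of the lower ones. This limit was chosen after the values were seen. It does not hold in the other library: at 4 d Ccl20 stood at 2.05 CPM in T cells and Phlda1 at 60.3. Ccl20, a chemokine that attracts CCR6+ leukocytes, stood at 0.526 CPM at 4 d and 62.9 at 6 d, and every 1 of the UMIs at 6 d lay in cells with Col14a1, whose level was 90.9 CPM against 0 without it. Nppc, the natriuretic peptide CNP, stood at 4.51 and 68.7 CPM, and was higher in cells without Col14a1 at both times (36.3 and 110 CPM against 1.72 and 50.2). Angptl4 stood at 10.4 and 56.0 CPM and Phlda1, a pleckstrin-like protein of the follicle, at 90.4 and 409. The cells with Postn, Cd34 or Krt24, compared further on, moved the same way, with Ccl20 at 8.38 and 62.1 CPM, Nppc at 16.5 and 39.5 and Phlda1 at 125 and 277. Sfrp1, a secreted Wnt inhibitor, stood at 246 and 647 CPM, and Ccn2, a matricellular protein, at 29.7 and 73.4. In the cells with Postn, Cd34 or Krt24 they stood at 395 and 550 and at 120 and 165. The extracellular matrix genes among the 14 were Col12a1 (33.9 and 109 CPM), Npnt (38.8 and 106), Abi3bp (41.0 and 124), Tnc (40.1 and 91.3) and Mfap2. All were also higher at 6 d in the cells with Postn, Cd34 or Krt24. There Col12a1 stood at 42.3 and 59.3 CPM, Npnt at 101 and 166, Abi3bp at 29.8 and 35.1, Tnc at 42.0 and 68.6 and Mfap2 at 11.7 and 16.3. Among the chosen cells, each of these matrix genes stood higher in cells without Col14a1 at both times. Within cells with Col14a1 all but Mfap2 (30.0 and 57.8 CPM) passed 2-fold. Within cells without it Col12a1 and Abi3bp passed 2-fold. Tnc (78.1 and 121 CPM), Npnt (105 and 162) and Mfap2 (65.1 and 89.6) did not.

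The 7 lower genes included Prss35, a serine protease-like gene, at 59.3 CPM at 4 d and 10.5 at 6 d, Basp1, a membrane-bound signalling protein, at 447 and 178, and Hsd11b2, which inactivates glucocorticoids, at 127 and 57.1. The others were Foxe1, Gm12446 (58.4 and 25.4 CPM), Lap3 (935 and 419.8) and Ptch1 (304 and 152). Each of these 7 was higher in cells with Col14a1 than in cells without it, at both times, and cells without it were 127 of 1261 at 4 d and 157 of 396 at 6 d. In T cells Ptch1 stood at 54.9 and 21.9 CPM and Lap3 at 144 and 28.0, and in the cells with Postn, Cd34 or Krt24 at 78.2 and 31.4 and at 321 and 107. When only cells with Col14a1 were compared, 18 genes were at least 2-fold lower at 6 d in place of 39. Each of the 7 was still lower at 6 d within cells with Col14a1, and within cells without it by at least 2-fold. With Col14a1, Prss35 (63.2 and 15.1 CPM) and Basp1 (466 and 224) passed 2-fold. The others did not. Foxe1 stood at 112 and 62.6 CPM, Hsd11b2 at 133 and 77.3 and Ptch1 at 315 and 191. Gm12446 stood at 61.4 and 32.7 CPM and Lap3 at 966 and 499. Of the other genes with the largest falls, Nrp2, a semaphorin and VEGF receptor, stood at 74.4 and 20.1 CPM (30.0 and 1.82 in T cells), Cux1, a homeobox factor of the lower follicle, at 303 and 82.5, and Hist1h1b at 581 and 228. Fbxo5 and Magohb stood at 55.3 and 58.4 CPM at 4 d and at 22.3 and 24.6 at 6 d, and Fbxo5 went from 31.8 to 6.69 in T cells. Krt28, an IRS keratin, stood at 58.0 and 14.3 CPM against 48.2 and 13.4 in T cells, and Gm26532 at 71.2 and 24.8 against 201 and 48.1.

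By gene group, 5 of 18 measured HFSC and ORS genes were at least 2-fold higher at 6 d (Sfrp1, Barx2, Ccn2, Klf5 and Runx1) and none lower, with a median log2 ratio of 0.74. Klf5 was also past 2-fold in T cells (log2 1.27), and the others were not. Ccn2 stayed under 2-fold within cells with Col14a1 (27.4 and 53.4 CPM), and Sfrp1 within cells without it (493 and 829). Of 26 matrix and basement membrane genes, 5 were higher (Npnt, Tnc, Col16a1, Mfap2 and Col12a1) and none lower, with a median of 0.63. Of 5 hedgehog genes, Ptch1 was lower, with a median of -0.40: Gli1 stood at 52.8 and 42.2 CPM and Smo at 103 and 77.8. Of 16 S phase genes, 4 were lower (Mcm2, Mcm3, Rrm2 and Fen1) and none higher, with a median of -0.85, and Pcna stood at 283 CPM at 4 d and 147 at 6 d. These 4 genes fell further in T cells, with log2 ratios from -2.32 to -1.42, and the sum of the list went from 2558 to 1424 CPM in the chosen cells and from 1606 to 809 in T cells. Of 13 upper follicle and epidermal genes, 6 were higher (Lor, Sbsn, Krtdap, Plet1, Krt1 and Krt77) and Krt79 was lower, and Lor, Sbsn, Krtdap, Plet1 and Krt77 were also at least 2-fold higher in T cells, with log2 ratios from 1.23 to 6.43. Of 13 BMP and TGF-beta genes Id2 and Fst were higher. Fst rose further in T cells (log2 1.33 against 1.11), and Id2 did not rise there (log2 -0.32). Of 2 ERBB genes Hbegf, an EGFR ligand, stood at 65.6 and 213 CPM (105 and 117 in T cells). None of 8 measured P53 and BCL-2 family genes and, Gnmt aside, none of 11 methionine and one-carbon genes passed 2-fold, which at 4.71% and 1.19% over all genes says nothing particular about these lists. Mcl1, the pro-survival gene of the study, stood at 146 CPM at 4 d and 170 at 6 d. Bak1, which acts against it and was below the level needed to be counted, stood at 14 and 11.3.

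**Figure D4:**
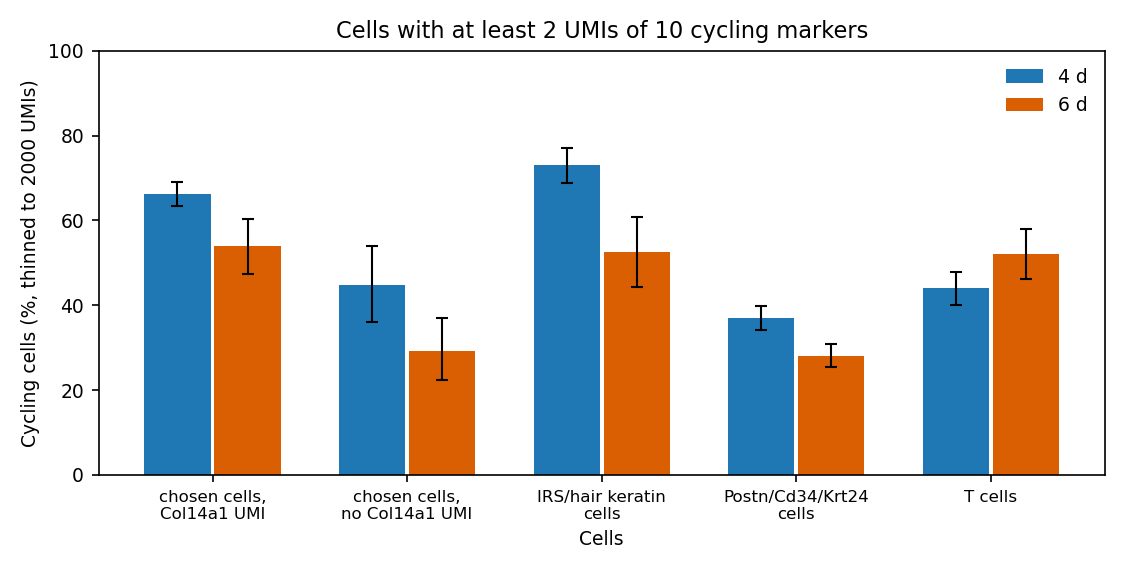
Share of cells with at least 2 UMIs over 10 cycling markers after thinning to 2000 UMIs (y axis, percent) in the 4 d and 6 d libraries, for the chosen cells split by Col14a1, cells with IRS or hair keratins, cells with Postn, Cd34 or Krt24, and T cells. Error bars are exact 95% binomial intervals, and the chosen cells with Col14a1 stood at 66.3% and 54.0% against 44.9% and 29.3% without it.

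A cell was counted as cycling if it held at least 2 UMIs over 10 genes of the G2 and M phases (Mki67, Top2a and others) after thinning to 2000 UMIs. At 2 d 7 of the 8 chosen cells were cycling. At 4 d the share was 64.2% (interval 61.5 to 66.8, n = 1259) and at 6 d 44.2% (39.2 to 49.2, n = 396). Without thinning it was 91.2% and 78.5%. Cells with IRS or hair keratins gave 73.1% at 4 d and 52.7% at 6 d, and cells with Postn, Cd34 or Krt24 37.0% and 28.1%. The chosen cells lay between them at both times, but at 6 d their interval overlapped that of the cells with IRS or hair keratins (44.4 to 60.9). T cells gave 44.0% and 52.1%. The part of free RNA in these shares was not tested. Mki67 stood at 261 CPM at 4 d and 183 at 6 d, and Top2a at 353 and 219.

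Cd34, the sialomucin that marks bulge HFSCs in mouse skin (chr1:194938819-194961279), stood at 15.8 CPM at 4 d and 32.8 at 6 d in the chosen cells. At least 1 raw Cd34 UMI was found in 2 of 8 cells at 2 d, in 172 cells at 4 d (13.6%) and in 98 at 6 d (24.7%). Of these, 139 and 81 held a single UMI. After thinning to 2000 UMIs the share was 3.57% at 4 d (interval 2.62 to 4.75) and 4.55% at 6 d (2.72 to 7.09), which overlap, and 0.613% and 0.352% of T cells held one. The thinned share was close in cells with Col14a1 (3.53% and 4.6%) and without it (3.94% and 4.46%), and in cycling (3.47% and 5.14%) and other cells (3.77% and 4.07%), with overlapping intervals in each case.

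Members with Cd34 UMIs were then compared with those without, by edgeR's quasi-likelihood test on UMIs summed per library, paired by library. The 4 d and 6 d libraries entered, since 2 d had under 10 cells per sum, which left 1 residual degree of freedom before the spread was shared across genes. Of 10256 genes, 4 were higher (0.039%) and 20 lower (0.195%) in cells with Cd34 UMIs at an adjusted p of 0.05, 0.234% in all, and 595 had an unadjusted p below 0.05. Crip1, a small LIM protein, rose from 326 to 505 CPM at 4 d and from 449 to 625 at 6 d (log2 0.55 ± 0.08 SE, adjusted p = 0.00074 by edgeR). Krt15, a keratin of bulge and basal cells, went from 1732 to 2150 and from 2072 to 2384 CPM (log2 0.25, edgeR adjusted p = 0.0297), and Krt17 from 5101 to 6257 and from 4153 to 4649 (log2 0.22, edgeR adjusted p = 0.0136). The fourth was Akr1c18, a steroid reductase (log2 1.25, edgeR adjusted p = 0.0297).

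Of 14 hair matrix and IRS genes, Krt28 and Prr9 were lower in cells with Cd34 UMIs and none was higher. The list summed to 425 CPM with Cd34 and 760.2 without at 4 d, and to 238 and 503 at 6 d, and its part in the other differences was not tested. Mt2, a metallothionein, stood at 142 against 283 CPM at 4 d and 237 against 428 at 6 d (log2 -0.93 ± 0.09 SE, edgeR adjusted p = 5.91e-06). Fabp5, an epidermal fatty acid-binding protein, stood at 570 against 888 and 549 against 872 CPM (log2 -0.66, edgeR adjusted p = 8.21e-06). Nrp2 stood at 27.6 against 82.0 and 5.2 against 25.5 CPM (log2 -1.68, edgeR adjusted p = 4.77e-05). Gjb2, a gap junction protein, Sprr1a and Lor, of the cornified envelope, Gadd45g, a stress gene, Dlx2, a homeobox factor, Arl4a and Timp3 were lower, with log2 differences from -1.36 to -0.55. Of 15 upper follicle and epidermal genes Lor alone passed, with a median log2 difference of 0.02, and their sum was 6319 CPM with Cd34 and 4289 without at 4 d, and 5178 and 8879 at 6 d. H2-Ab1, an MHC class II chain of Langerhans cells, stood at 3.78 against 27.8 and 11.4 against 51.4 CPM, with Cd74 and H2-Aa lower in both libraries without passing the test. It was the 1 gene of 5 on the Langerhans cell list that passed, none of the 3 on the list still tested passed with doublets removed, and the part of barcodes that also held a Langerhans cell was not tested. The 7 melanocyte genes summed to 331 CPM with Cd34 and 122 without at 4 d, and to 75.9 and 239 at 6 d, and the 8 T cell genes to 73.5 and 74.5 and then to 0 and 35.7. No HFSC and ORS gene of 22, no hedgehog gene of 11, no Wnt gene of 29 and no S phase gene of 20 passed, at a share over all genes of 0.234% that leaves little to read from lists of this size. With cells matched on total UMIs, 1 HFSC and ORS gene was higher, and 1 Wnt gene was higher and 1 lower. Sox9 had a log2 difference of 0.28, Lgr5 of 0.14, Nfatc1 of 0.27 and Ptch1 of -0.03. When doublets by score were removed the counts were 0 higher and 7 lower, and with DESeq2 0 and 5. Without the pairing by library no gene passed in either direction.

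**Figure D5:**
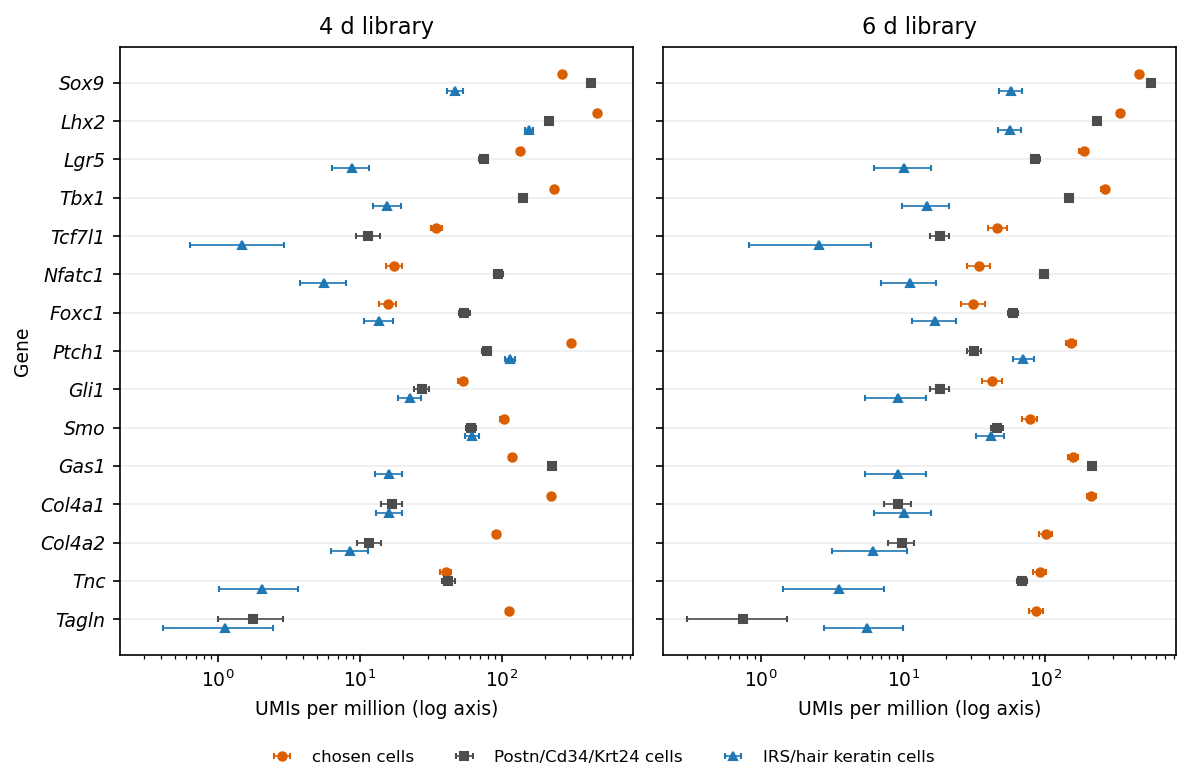
Level in CPM (x axis, log scale) of 15 genes in the chosen cells, in cells with Postn, Cd34 or Krt24 and in cells with IRS or hair keratins, at 4 d (left) and 6 d (right), with exact Poisson 95% intervals. In both libraries Ptch1, Col4a1, Col4a2 and Tagln were highest in the chosen cells, and Nfatc1, Foxc1 and Gas1 in the cells with Postn, Cd34 or Krt24.

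To place the chosen cells beside bulge cells, cells of the same libraries with at least 3 UMIs over Cd34, Krt24 and Postn and fewer than 3 over the rule genes were summed. This gave 1154 cells at 4 d and 1076 at 6 d, of which 1122 and 1036 held Postn, so the class is chiefly of Postn+ cells. The rule genes, these 3 genes and the collagens were left out of the counts of this comparison. Both classes were picked by expressed genes, so genes that go with those used in the choice differ by construction, and the test describes the other genes. Of 12570 genes, 1182 were higher in the chosen cells (9.40%) and 1669 lower (13.3%) by edgeR at an adjusted p of 0.05, again with 4 d and 6 d as pairs. With cells chosen by Cd34 and Krt24 alone (251 and 366 cells) the counts were 1186 and 1228, and without the pairing 21 and 26.

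Tagln had the largest rise among the genes named by size for the chosen cells. Tagln, an actin-binding protein of contractile cells, stood at 112 CPM at 4 d and 86.1 at 6 d against 1.76 and 0.743 (log2 6.21 ± 0.21 SE, edgeR adjusted p = 1.06e-06). Acta2 stood at 7.51 and 8.28 CPM against 1.10 and 2.02, and the endothelial genes Pecam1 and Kdr were below 1 CPM in the chosen cells. Basp1 stood at 447 and 178 CPM against 14 and 6.58 (log2 4.80), and Hsd11b2 at 127 and 57.1 against 5.84 and 1.59 (log2 4.59). Col4a1 stood at 222 and 211 CPM against 16.8 and 9.13 (log2 4.01). Fhod3, a formin, Fads2, a fatty acid desaturase, Cntfr, a cytokine receptor subunit, Itga1, a collagen receptor, Gm12446 and the marker Foxe1 were higher by 3.43 to 5.42 on the log2 scale.

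Of the 10 named genes that were lower in the chosen cells, several are known from the epidermis. Lce1m, Stfa3, Cstdc5 and Krt6a, genes of cornifying or stressed keratinocytes, were lower, with log2 differences from -3.68 to -2.72. Tgfb2 stood at 6.91 and 4.69 CPM against 37.5 and 50 (log2 -2.85, edgeR adjusted p = 0.000178). S100a4, a calcium-binding protein of the bulge, stood at 37.1 and 24.8 CPM against 264 and 142 (log2 -2.78, edgeR adjusted p = 1.18e-05). Slco2a1, Cdh13, Pdlim3 and Tgm5 were lower, with log2 differences from -2.80 to -2.66. Of 15 upper follicle and epidermal genes 13 were lower, among them Ly6a, which encodes SCA-1 (log2 -2.19), and Krt79 (log2 -1.35), and none was higher. Against cells chosen by Cd34 and Krt24 alone, 9 of the 15 were lower and 1 was higher.

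Of 23 HFSC and ORS genes, 6 were higher in the chosen cells (Igfbp7, Tcf7l1, Lgr5, Tbx1, Tcf7l2 and Lhx2) and 10 lower (Igfbp5, Nfatc1, Ccn2, Hopx, Foxc1, Fgf18, Klf5, Gata3, Fgf1 and Sox9). Lgr5 differed by 0.89 on the log2 scale and Nfatc1 by -2.11. Against cells chosen by Cd34 and Krt24 alone, 2 were higher and 11 lower. Among the hedgehog genes, the targets Ptch1 (log2 2.02) and Gli1 (log2 0.99) and the transducer Smo (log2 0.67) were higher, and Scube2, which helps release the ligand, and the co-receptors Cdon, Gas1 and Boc were lower. Of 20 S phase genes 18 were higher and none lower, with a median log2 difference of 0.75, and 14 were higher when cells were matched on total UMIs. Of the 10 cycling markers only Hmgb2 passed (log2 0.57), with Mki67 at 0.24, but 8 of 10 were higher against cells chosen by Cd34 and Krt24 alone, 4 with a minimum of 5 UMIs of the rule genes and 0 when matched on total UMIs. Of 16 hair matrix and IRS genes 8 were higher (Krt28, Dlx3, Hoxc13, Msx2, Lef1, Msx1, Krt73 and Prr9) and Mt4 and Gata3 were lower, with a median log2 difference of 1.08. The higher ones numbered 4 with a minimum of 5 UMIs of the rule genes and 5 with DESeq2. They numbered 5 against cells chosen by Cd34 and Krt24 alone and 12 with doublets removed.

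Of 45 matrix and basement membrane genes, 15 were higher, with Col4a1 (log2 4.01) and Col4a2 (log2 3.06) among them and also Lama5, Hspg2, Lamc1 and Nid1, and 14 lower, including the hemidesmosome genes Col17a1 (log2 -1.48), Itga6 and Itgb4 and the anchoring fibril collagen Col7a1. Of 24 methionine and one-carbon genes other than Gnmt, 10 were higher and Psat1 was lower: Sardh, which removes the methyl group that GNMT adds to glycine, stood at 48.2 and 62.9 CPM against 17.6 and 23.0 (log2 1.36, edgeR adjusted p = 0.000243), and Ahcy, which clears S-adenosylhomocysteine, at 6.08 and 6.62 against 0.992 and 1.70. Of 12 basal keratinocyte genes 10 were lower, with Krt15 at 1790 and 2155 CPM against 4849 and 4834, and Krt17 did not pass (log2 0.09). Of 33 Wnt genes 4 were higher and 10 lower, and of 31 BMP and TGF-beta genes 2 were higher and 11 lower. Over all genes 9.40% were higher and 13.3% lower, and the higher counts lie near that share. Against cells chosen by Cd34 and Krt24 alone, 1 of 31 Wnt genes was higher and 10 lower. With DESeq2, 0 BMP and TGF-beta genes were higher and 8 lower. Of 23 P53 and BCL-2 family genes, Bcl2 was higher (log2 0.47) and Cdkn1a, Bbc3, Phlda3, Pmaip1, Bcl2l2 and Ccng1 were lower, beside the same shares over all genes. With DESeq2 the counts for this list were 0 higher and 1 lower, and with doublets removed 0 and 6. Mcl1 had a log2 difference of -0.38 ± 0.14 SE (edgeR adjusted p = 0.0814).

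The second comparison set the chosen cells beside cells with at least 10 UMIs over 8 IRS and hair keratins (455 at 4 d and 151 at 6 d). Of 11411 genes, 1321 were higher in the chosen cells (11.6%) and 1069 lower (9.37%) by edgeR at an adjusted p of 0.05. Of 24 HFSC and ORS genes, 18 were higher, Cd34 and Postn among them, and 3 lower (Hopx, Gata3 and Klf5): Sox9 stood at 266 and 456 CPM against 46.8 and 57.4 (log2 2.62, edgeR adjusted p = 7.61e-07), Lgr5 differed by 3.93 and Tbx1 by 3.88 on the log2 scale, and Tcf7l1 by 4.28. Of 42 matrix and basement membrane genes 32 were higher, among them Tnc (log2 4.34), Itgb6 (log2 4.41), Fbln2 (log2 4.53) and Col4a1 (log2 3.89), and Dcn, Fn1 and Fras1 were lower. Dcn stood at 585 and 425 CPM in the cells with IRS and hair keratins.

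The remaining genes with the largest rises were Tagln (log2 5.24), Hsd11b2 (log2 4.93), Pi15, a secreted protease inhibitor (187 and 224 CPM against 6.69 and 5.08), Itga1, Trabd2b, which cleaves Wnt proteins, Myl9, a myosin light chain, and Crispld1. The lowest included genes of the hair shaft, the IRS and the cornified envelope: Krtap3-2, Gm49425, Lce1b, Lce1a1, Prr9 and Tchh were lower, with log2 differences from -8.23 to -5.33. Shh stood at 1.35 and 0.828 CPM against 64.3 and 54.9 (log2 -5.74, edgeR adjusted p = 1.8e-07), Wnt10b at 0.826 and 0.552 against 25.3 and 23.4, and Btc, an EGFR ligand, at 0.451 and 1.66 against 30.7 and 52.8. Of 12 hedgehog genes the ligand Shh was lower, 7 others were higher (Ptch1, with a log2 difference of 1.16, Gas1, Boc, Smo, Hhip, Gli1 and Gli2) and 4 did not pass. Of 34 Wnt genes, 9 were higher and 16 lower, the latter with Lef1 (log2 -4.46), Axin2 (log2 -2.30), Wnt5a and Tcf7. Of 10 cycling markers only Hmgb2 passed, and it was lower, and of 20 S phase genes Gins2, Mcm6 and Cdt1 were higher. At 11.6% higher and 9.37% lower over all genes, these counts say nothing particular about the lists. With DESeq2 or with a minimum of 5 UMIs of the rule genes, 1 S phase gene was higher. Lower cycling markers numbered 0 with DESeq2 and 3 with doublets removed. Of 21 P53 and BCL-2 family genes Bcl2 was higher (log2 1.60) and Cdkn1a lower (log2 -1.45).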

How the data were processed

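The count files held UMI counts per gene and barcode, which the authors made with Cell Ranger 6.1.2 on mm10 (submitters' processing notes), for 32285 genes. The deposited counts were used unnormalized. The members, gene lists and comparisons were chosen with earlier results of these data known. UMIs were summed over cells of a class in each library, and CPM is per 1000000 of that sum. The edgeR quasi-likelihood test (edgeR 4.0.16, TMM, filterByExpr, library as block, robust, Benjamini-Hochberg adjustment at 0.05) ran on classes with at least 10 cells per library, and DESeq2 1.42.0 was an alternative. With library as block, p-values set the difference between classes against how far it varies between the 4 d and 6 d libraries, with spread shared across genes. These libraries are different time points, so this is not a spread between replicates. Genes named were, per edgeR comparison, the 10 with the largest fold each way among called genes with at least 20 CPM in the higher class and 1 direction in both libraries, with 3 eligible higher and 10 shown lower for Cd34, and, between time points, the 10 largest folds each way, besides members of the lists. Some genes that the rule names are not reported here. Lor, Akr1c18, Cd74 and H2-Aa in the Cd34 comparison were named after their values were seen. Comparators and T cells (at least 5 UMIs over 8 genes) were chosen by UMIs. Doublets were scored with Scrublet in scanpy 1.11.5, at 0.8% per 1000 barcodes. On simulated counts with 200 changed genes, edgeR recovered 68% of 2-fold and 100% of 4-fold changes for Cd34, 73% and 99% for the Postn, Cd34 or Krt24 cells, and 57% and 100% for the keratin cells. False calls numbered 10, 6 and 4. The simulation used the same preset spread for every gene, not the spread of these sums, and changed only genes above a minimum count. It thus checks the code and does not give the power of the tests on these data. Pairs of libraries shared 7 to 47 barcode sequences and none among the chosen cells. Promoters came from RefSeq and gene positions from GENCODE.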

Additional observations from a re-analysis of the deposited data

Results flagged for a closer look

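The limit on fibroblast collagens removed 35 barcodes at 4 d and 7 at 6 d that held at least 3 UMIs of the rule genes, a signal outside the comparisons and absent from the other 4 libraries. At 4 d they stood at 1693 CPM of Col1a1, 711 of Dcn, 458 of Corin and 1679 of Krt14, with Pdgfra in 9 of them. At 6 d they stood at 614 CPM of Cpxm1, 427 of Corin, a gene of the dermal papilla, and 80.1 of Krt14, with no Pdgfra UMI. The doublet score marked 7 of them at 4 d and 0 at 6 d.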

How the results depend on the processing

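No paired analysis beyond the pairing by library was possible because the labels number no replicates, and each class has 1 sum per library. The 2 d library entered no fit, so leaving it out could not change the 4 and 20, 1182 and 1669, and 1321 and 1069 calls and says nothing about their stability. Leaving out 4 d or 6 d left no residual degrees of freedom and gave no test. The direction of 1 named value turned: Gadd45g stood at 0.26 when Cd34 status was set after thinning. Beside the values of the report, the share of chosen cells at 2 d was 0.178% with a minimum of 2 UMIs, 0.0105% with 5, 0.0315% with 0 collagen UMIs and 0% after thinning. The same settings gave 13.3%, 6.00%, 9.52% and 1.73% at 4 d. At 6 d the minimums gave 5.39% and 2.54%, and thinning 1.28%. The cycling share was 100% at 2 d without thinning, without doublets and with a minimum of 5 UMIs. Without thinning, with at least 1 marker UMI and with at least 4 it was 91.2%, 81.7% and 46.9% in the 4 d library, and 78.5%, 69.2% and 27.3% in the 6 d library. The Cd34 share at 2 d was 0% with at least 2 Cd34 UMIs, without doublets and with a minimum of 5. Without thinning it was 13.6% (4 d) and 24.7% (6 d), and with at least 2 Cd34 UMIs 0.159% and 0.253%. Genes lower at 6 d numbered 65 by the mean of per-cell CPM, 18 in cells with Col14a1 and 80 in cells not cycling. At 20 CPM, 294 were higher and 88 lower.

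Calls for Cd34, higher and lower, were 0 and 5 with DESeq2, 9 and 54 with no count filter, 0 and 0 with no replicate block, 0 and 7 without doublets, 48 and 31 with a minimum of 5 UMIs, 2 and 32 with thinned Cd34 status, and 1 and 4 in cells not cycling. Higher calls were 8 with the robust option off and 16 with cells matched on UMIs. Against the Postn, Cd34 or Krt24 cells, DESeq2 gave 467 and 772 calls and no replicate block 21 and 26. Against the keratin cells, DESeq2 gave 561 and 492, no replicate block 315 and 149, and a minimum of 5 UMIs 865 and 633. The cause of these changes was not tested. Of the 13 genes named for Cd34, 3 passed with DESeq2, 3 after removing doublets and 0 with no replicate block. In cells not cycling 0 passed. All 20 named for each other edgeR comparison passed with DESeq2. With no replicate block, 9 of the 20 passed against the Postn, Cd34 or Krt24 cells and 16 against the keratin cells. Depth limits the Cd34 groups, since 139 of 172 and 81 of 98 cells rested on 1 UMI.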

Other observations

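At the earlier times the classes used beside the chosen cells can be counted without them, though their make-up differs between libraries. Cells with Postn, Cd34 or Krt24 numbered 781 at 0 h, 540 at 4 h, 1524 at 16 h and 2800 at 2 d, of 6925, 7663, 8729 and 9534 filtered barcodes. Of them 378, 178, 406 and 146 held a Cd34 UMI, and 729, 531, 1473 and 2773 a Postn UMI. The class thus need not be the same cells at each time. Its cycling share after thinning was 14.3%, 5.64%, 30.0% and 34.5%. In cells chosen by Cd34 and Krt24 alone it was 6.28%, 2.29%, 9.20% and 22.4%, and in T cells 29.1%, 35.9%, 25.1% and 38.1%.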
